A study of Mus musculus with 11 samples.

Results

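Colon removed 12 h after an injection of imatinib was compared with colon removed before imatinib, across 18193 genes. The comparison used 7 of the 11 arrays of the series: 4 arrays of colon at 12 h (replicates 1 to 4) and 3 control arrays (replicates 1 to 3), picked by their sample titles. The remaining 4 arrays, of colon 3 h after imatinib, shared in the estimate of the spread. Where a 3 h value is given, it shows how much of a difference was already there at 3 h. All mice were adult C57BL/6, an inbred laboratory strain, and RNA was taken from the organ as a whole. The labels state neither a dose nor which stretch of the colon was sampled. The control arrays are of colon before imatinib, and no colon taken at a matched hour after an injection without the drug was analysed here, so drug, injection and time of day cannot be told apart. The labels do not say that replicates came from separate mice, so each p-value measures the spread between these samples, which may be technical.

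Imatinib is a tyrosine kinase inhibitor that blocks the ABL kinases, KIT, the PDGF receptors, the DDR receptors and CSF1R. The colon surface is lined by absorptive colonocytes, which take up sodium, water and short-chain fatty acids and are renewed from dividing cells at the base of the crypts. Below them lie fibroblasts, immune cells, vessels, nerves and smooth muscle, and all of these contribute RNA to a whole-organ sample. In such a sample, fewer cells of a type and less RNA per cell cannot be told apart.

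At 12 h, 143 genes were higher and 154 were lower than in control, which is 0.786% and 0.846% of the genes tested (together 297 genes, 1.63%; limma, Benjamini-Hochberg adjusted p under 0.05 over all genes). An unadjusted p under 0.05 was found for 2883 genes (15.8%), the background against which such counts in the gene lists below are to be read. Of the 143 and 154 genes called by the adjusted p, 47 rose and 26 fell by at least 2.0-fold on the scale of signal + 16. The split between rises and falls depended on how the arrays were scaled to each other: it was 165 to 115 with an equal median over the genes tested, and 150 to 64 with an equal median over all probe sets. The 3 control and 4 imatinib 12 h arrays did not overlap in 2372 genes (13.0%), 1101 higher (6.05%) and 1271 lower (6.99%). Signals below are the deposited intensities, listed in the order of the replicate numbers. A change is the difference of group means of log2(signal + 16), with its standard error (SE) and n = 3 and 4, which understates the change of dim genes. Each call was also repeated with each of the 11 arrays left out in turn, and the number of arrays whose removal ended the call is given with the highest adjusted p reached.

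The arrays differed in the tissue they carried. Over 18 genes of the exocrine pancreas, the mean log2 level was 12.8, 7.09 and 8.05 on the control arrays and 12.54, 7.66, 11.93 and 10.94 at 12 h. Cpa1, a pancreatic digestive protease, had signals of 8358, 12.9 and 94.3 in control and 6818, 60.2, 4735 and 2417 at 12 h. Pancreatic RNA was thus high on control replicate 1 and low on 12 h replicate 2, and 0 of the 18 genes passed the test (0 at an unadjusted p under 0.05). Of 9 genes of male accessory glands, 0 passed (0 unadjusted). Without the 5 arrays high in pancreatic transcripts (one of them a 3 h array), 2 control arrays and 1 array at 12 h remained, and 5 genes were called higher and 3 lower at 12 h. That fit assumes that the lone 12 h array, replicate 2, varies like the arrays of the other groups, so it does not check any single gene. Removing 1 array moved the counts by over 1.5 times for control replicate 1 (44 higher, 31 lower), control replicate 2 (31 and 33), 12 h replicate 2 (65 and 76) and 12 h replicate 3 (52 and 58). The count of lower genes moved that far also without 3 h replicate 1 (95) and without 12 h replicate 4 (251). RNA standards added before labelling summed to 1189 to 1438 in control and to 1635 to 3281 at 12 h, without overlap, and their part in the results was not tested. The mean log2 level of 25 colonocyte markers was 10.45 to 10.54 in control and 10.57 to 10.86 at 12 h. That of 19 goblet cell markers was 10.24 to 10.56 over the 7 arrays. No other stretch of gut was set beside these levels, so they do not check which stretch was sampled.

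The 3 promoters below are shown because they belong to genes among the 20 largest rises named here and hold a motif of factors that bind DNA with a daily rhythm. Capitals mark the motif. Each window holds the 250 bases before a RefSeq transcription start of GRCm38.p6, written 5′ to 3′ on the gene's strand. Slc51a lies at chr16:32487880-32488129 on the minus strand, Tspan4 at chr7:141476130-141476379 on the plus strand (1 of its 2 windows), and Ces1g at chr8:93337210-93337459 on the minus strand.
Slc51a: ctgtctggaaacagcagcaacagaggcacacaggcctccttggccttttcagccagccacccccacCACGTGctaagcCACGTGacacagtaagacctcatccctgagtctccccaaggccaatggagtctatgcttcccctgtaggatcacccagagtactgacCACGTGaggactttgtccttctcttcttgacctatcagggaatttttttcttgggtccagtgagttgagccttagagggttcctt
Tspan4: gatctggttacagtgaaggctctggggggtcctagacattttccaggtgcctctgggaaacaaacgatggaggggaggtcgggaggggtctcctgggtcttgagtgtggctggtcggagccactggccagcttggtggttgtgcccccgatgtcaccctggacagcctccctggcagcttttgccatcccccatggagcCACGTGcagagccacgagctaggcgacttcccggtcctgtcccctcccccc
Ces1g: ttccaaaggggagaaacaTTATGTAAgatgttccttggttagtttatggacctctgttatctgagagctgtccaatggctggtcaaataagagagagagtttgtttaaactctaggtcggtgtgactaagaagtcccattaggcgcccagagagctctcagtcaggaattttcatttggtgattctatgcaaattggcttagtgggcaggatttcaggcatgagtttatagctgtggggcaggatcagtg
The first 2 hold the E-box CACGTG, to which the CLOCK and ARNTL proteins bind, and the last holds the D-box TTATGTAA, to which DBP and TEF bind. In Slc51a the E-box starts 184, 172 and 85 bases before the start site, in Tspan4 51 bases and in Ces1g 232 bases. Searched on both strands, the E-box was in 1978 of 32851 promoter windows (6.02%) and the D-box in 269 (0.819%). Of the 20 rises, 15 had a promoter in the table, and 3 of these held an E-box (Slc51a, Tspan4 and Tef) and 1 a D-box. A gene was counted if any of its windows held the motif, whereas the percentages are shares of windows. Counts of genes and shares of windows are therefore not like for like. Of the 20 largest falls named here, 14 had a promoter and 0 held either motif. The element TAGGTCA, bound by ROR and REV-ERB receptors, was in 734 windows (2.23%) and among these genes in Slc51a. The full palindrome of the glucocorticoid response element was in 3 windows (0.00913%) and in 0 of the rises and falls. A match describes these letters and is not a binding site.

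**Figure D1:**
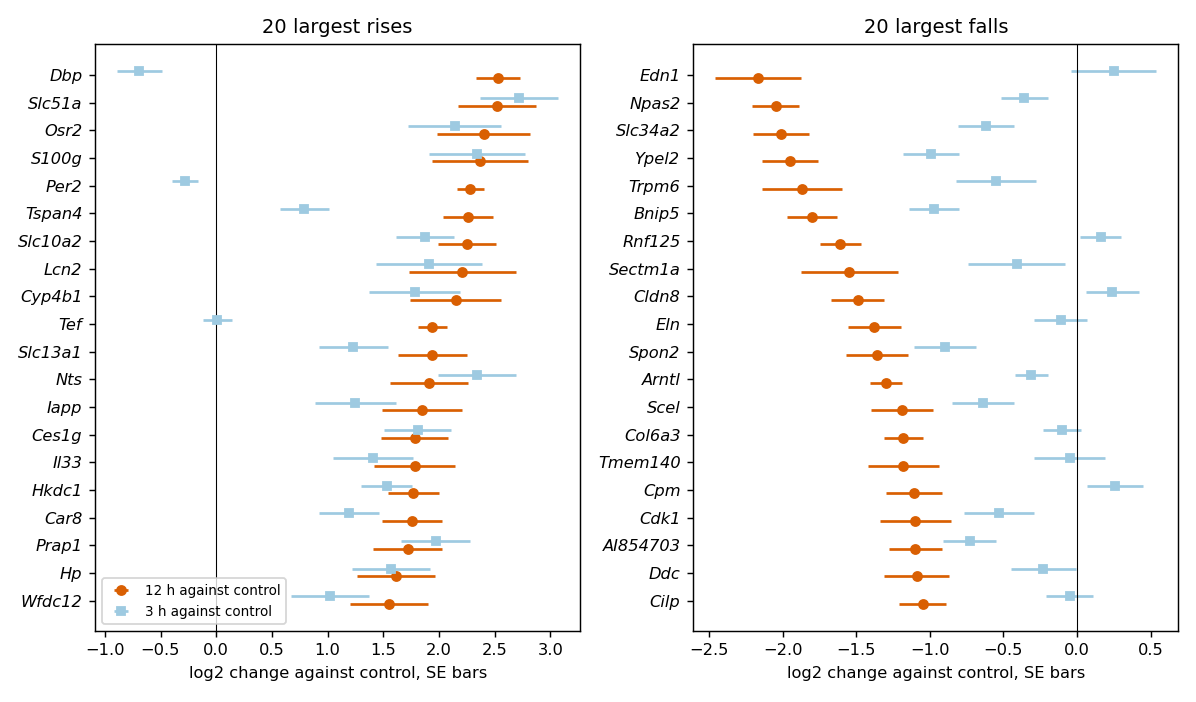
Log2 change between 12 h and control for the 20 largest rises and 20 largest falls named here, as circles, with squares for the change between 3 h and control and bars for the SE. The rises run from Dbp at 2.53 downward and the falls start with Edn1 at -2.17, whose 3 h value was 0.25.

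Transporters of the absorptive epithelium were among the largest rises. Both ends of the bile acid route across the epithelium rose. Slc10a2 encodes the apical sodium-dependent bile acid transporter, best known from the ileum. Its signals were 1.2, 7.6 and 12.2 in control and 53.4, 145.1, 96.2 and 88.6 at 12 h, so the groups did not overlap and the control values were near the floor of the array. The change was 2.25 ± 0.26 (adjusted p = 0.00172), beside 1.87 at 3 h. Slc51a encodes the alpha subunit of the basolateral bile acid exporter. Its signals were 15.9, 25.7 and 83.6 in control and 160.8, 305.2, 396.3 and 298.5 at 12 h, with control replicate 3 the nearest to the treated arrays. It rose by 2.52 ± 0.35 (adjusted p = 0.00575), beside 2.72 at 3 h, and neither call ended on leaving out any of the 11 arrays. In all, 2 of 12 measured bile acid genes rose and 0 fell, with a median change of 0.36 against -0.006 over all genes tested.

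Carriers of other solutes rose with them. S100g, the calcium-binding protein calbindin-D9k of absorptive cells, had signals of 32.9, 23.8 and 143.7 in control and 289.7, 251.7, 643.6 and 265.8 at 12 h. The groups did not overlap, control replicate 3 and 12 h replicate 3 stood highest in their groups, and the change was 2.37 ± 0.43 (adjusted p = 0.0214). Slc13a1, a sodium-sulphate cotransporter, had signals of 34.7, 50.5 and 131.9 in control and 226.3, 282.2, 396.1 and 270.5 at 12 h. Again the groups stood apart, and the change was 1.94 ± 0.31 (adjusted p = 0.0135), while a second, dimmer probe set changed by 0.20. The S100g call ended on leaving out any of 3 arrays (control replicates 1 and 2, 12 h replicate 3; adjusted p up to 0.101), and the Slc13a1 call on leaving out either of control replicates 1 and 2 (up to 0.0757). At 3 h the changes were 2.34 for S100g and 1.23 for Slc13a1.

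Slc3a1 and Slc7a9 encode the heavy and light subunits of the cystine and dibasic amino acid exchanger of the brush border, and both rose. Slc3a1 signals were 117, 124.8 and 138.6 in control and 251.4, 275.1, 403.3 and 312.5 at 12 h. For Slc7a9 they were 41.3, 39 and 66.4 in control and 150, 121.4, 190.9 and 128.7 at 12 h. Neither gene overlapped between the groups, and the changes were 1.17 ± 0.19 (adjusted p = 0.0121) and 1.34 ± 0.23 (adjusted p = 0.0161). Leaving out control replicate 1 or control replicate 2 ended both calls (adjusted p up to 0.0638 for Slc3a1 and 0.0847 for Slc7a9). They were the 2 called members among 18 amino acid and peptide transporters, whose median change was 0.08.

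Among 13 sugar and carboxylate transporters, 2 rose and 1 fell (median 0.30). Slc5a1, the sodium-glucose cotransporter, had signals of 661.8, 583.3 and 561 in control and 952.8, 994.2, 1063 and 861.1 at 12 h, a narrow and separate range in each group. Its change was 0.67 ± 0.12 (adjusted p = 0.0173), lost without control replicate 2 or 12 h replicate 3 (up to 0.081). Slc16a5, a monocarboxylate carrier, rose by 0.81 ± 0.13 (adjusted p = 0.01), lost without control replicate 2 (0.0513). Slc16a1, the monocarboxylate carrier that takes up butyrate, fell. Its signals were 3183, 2790 and 2108 in control and 1198, 1506, 1129 and 1943 at 12 h, where 12 h replicate 4 came close to the lowest control. The change was -0.90 ± 0.19 (adjusted p = 0.0362), and leaving out any of 8 of the 11 arrays ended the call (up to 0.146). Hkdc1, a glucose-phosphorylating enzyme related to the hexokinases, had signals of 27.5, 48.6 and 73 in control and 146.1, 187.3, 280.2 and 200.3 at 12 h. All 4 treated arrays were above all controls, the change was 1.77 ± 0.23 (adjusted p = 0.00395, kept on leaving out any array), and a dimmer probe set changed by -0.17.

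Of 17 genes of sodium absorption, 2 rose and 0 fell (median 0.07). Scnn1g, the gamma subunit of the epithelial sodium channel ENaC, had signals of 8, 12.3 and 7.8 in control and 54.8, 67.8, 86.2 and 30.6 at 12 h. The treated arrays were all above the controls, with replicate 4 the lowest of them. Sgk1, a hormone-induced kinase that raises ENaC activity, had signals of 488.7, 788.5 and 611.7 in control and 1202, 2208, 2101 and 1654 at 12 h, again without overlap. The changes were 1.53 ± 0.22 (adjusted p = 0.00728) for Scnn1g and 1.47 ± 0.21 (adjusted p = 0.00582) for Sgk1, kept on leaving out any array, beside 1.37 and 1.90 at 3 h. Kcnq1, a potassium channel of the basolateral membrane, was the 1 called member of 11 potassium and proton transporters. Its signals were 193.6, 168.5 and 136.4 in control and 248.6, 288.1, 294.1 and 263.9 at 12 h. It rose by 0.68 ± 0.12 (adjusted p = 0.0182; lost on leaving out control replicate 2, 12 h replicate 2 or 12 h replicate 3, up to 0.0757) and also passed the test against 3 h, by 0.50, as 741 of all genes did (4.07%). Slc13a1 was the 1 called gene among 20 of chloride, bicarbonate and sulphate transport, and 0 of 8 aquaporins passed the test (3 at an unadjusted p under 0.05). The water channel Aqp4 changed by -0.58 ± 0.14 (adjusted p = 0.0538) and Aqp8 by -0.44 (adjusted p = 0.235). Dimmer Aqp4 probe sets changed by -0.86 and -0.72.

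**Figure D2:**
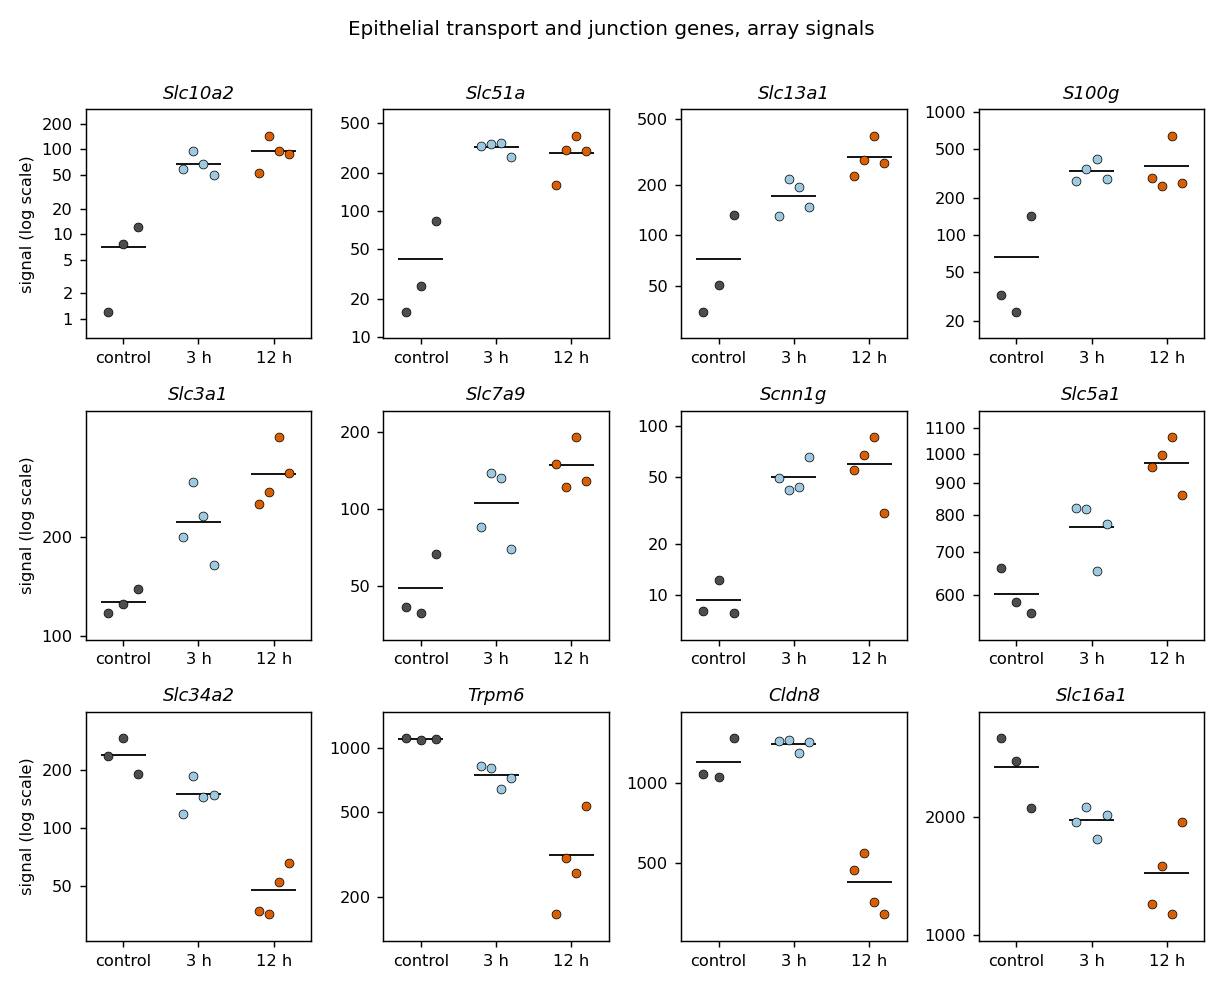
Deposited signal (log axis) of transporter and junction genes on each array, by group (control, 3 h and 12 h), with a line at the group mean. Slc10a2 lay between 1.2 and 12.2 in control and between 53.4 and 145.1 at 12 h, and Cldn8 between 1059 and 1482 in control and between 318.9 and 545.9 at 12 h.

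Carriers of phosphate and magnesium fell in the same arrays. Slc34a2 encodes the sodium-phosphate cotransporter IIb. Its signals were 237, 291 and 189.9 in control and 37.3, 35.6, 52.2 and 66 at 12 h, 5.01-fold lower on average and without overlap. The change was -2.01 ± 0.19 (adjusted p = 0.00027). Trpm6 is the magnesium channel of the colon and kidney epithelium. Its signals were 1116, 1101 and 1103 in control and 165.1, 303.6, 258.6 and 536.2 at 12 h, where replicate 4 had the smallest fall. The change was -1.87 ± 0.27 (adjusted p = 0.00728), with -1.52 for a second probe set. Both calls were kept on leaving out any array, and both genes were lower at 12 h than at 3 h, Slc34a2 by -1.38 and Trpm6 by -1.32. With S100g, these made 1 rise and 2 falls among 22 genes of calcium, magnesium and phosphate transport, with a median change of 0.00 to 2 decimals.

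Among 21 genes of tight junctions 1 rose and 2 fell (median -0.02), all of them claudins. Cldn8, a sealing claudin of the distal colon, had signals of 1084, 1059 and 1482 in control and 470.1, 545.9, 356.1 and 318.9 at 12 h. Every treated array was below every control, and the change was -1.49 ± 0.18 (adjusted p = 0.00172, kept on leaving out any array). At 3 h it differed from control by 0.24, and the step from 3 h to 12 h was -1.73. Cldn23, another epithelial claudin, changed by -0.93 ± 0.19 (adjusted p = 0.0346, lost for 8 of 11 arrays left out, up to 0.141). Cldn2, which forms a pore for cations and water, had signals of 496.2, 515.3 and 539.3 in control and 848.2, 687, 903.6 and 908.7 at 12 h, with no overlap. It rose by 0.67 ± 0.13 (adjusted p = 0.0296, lost for 5 of 11 arrays left out, up to 0.115), while a dimmer probe set changed by 0.45. None of 16 desmosome and keratin genes passed the test (2 at an unadjusted p under 0.05).

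Of 16 anterior Hox and proximal colon genes, 3 rose and 0 fell, with a median change of 0.03 and 8 members on either side of 0. Osr2, a zinc finger transcription factor, had signals of 2.7, 14.8 and 65.1 in control and 137.1, 137.3, 229.9 and 212 at 12 h. The control arrays spread widely and stayed below the treated ones. Its change was 2.40 ± 0.42 (adjusted p = 0.0182; lost without control replicate 1, control replicate 2 or 12 h replicate 3, up to 0.0883), while a dimmer probe set changed by 0.15. Hoxb3 and Hoxb6, homeobox genes of anterior position, rose by 0.78 ± 0.15 (adjusted p = 0.0264) and 1.19 ± 0.26 (adjusted p = 0.0477), lost for 4 and 8 of the 11 arrays left out (up to 0.105 and 0.174). Over the whole list the mean log2 level was 5.41 to 5.51 in control and 5.59 to 5.88 at 12 h. For 12 posterior Hox genes it was 6.29 to 6.53 and 6.35 to 6.44, with 0 calls (0 at an unadjusted p under 0.05). Where along the colon each sample was cut is not given, and the part of position in the transporter changes above was not tested. Control replicate 3 was the nearest of the controls to the 12 h arrays for S100g, Slc51a, Slc13a1, Osr2 and Hkdc1.

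Other genes of absorptive cells rose in small numbers. Of 25 colonocyte markers, 4 rose and 0 fell (median 0.08): Tmigd1, Guca2b and the Slc51a and Scnn1g already given. Of the 25, 14 had a change above 0 and 11 below, with a range from -1.63 to 2.52. Tmigd1, an adhesion protein of mature enterocytes, had signals of 490.9, 692.2 and 962.4 in control and 1459, 2081, 2337 and 2138 at 12 h. The groups stood apart, with a change of 1.5 ± 0.23 (adjusted p = 0.01, lost without control replicate 2, 0.0534). Guca2b, the hormone uroguanylin, rose by 0.80 ± 0.17 (adjusted p = 0.0387, lost for 9 of 11 arrays left out, up to 0.16). Prap1, a secreted acidic protein of the gut lining, had signals of 28.6, 21.4 and 69.6 in control and 112, 132.4, 223.3 and 179 at 12 h. It rose by 1.72 ± 0.31 (adjusted p = 0.0214; lost without control replicate 1, control replicate 2 or 12 h replicate 3, up to 0.102), with 1.76 for its second probe set.

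Further called genes, some of them of the brush border, were chosen after their values were seen. Myo1a, the myosin that links the membrane to the microvillus core, had signals of 1030, 1232 and 1161 in control and 2068, 1804, 2043 and 1806 at 12 h, a change of 0.75 ± 0.11 (adjusted p = 0.00752). Amn, amnionless, the partner of cubilin in vitamin B12 uptake, had signals of 16.6, 21.9 and 24 in control and 55.5, 65.7, 107.9 and 90.2 at 12 h, a change of 1.35 ± 0.19 (adjusted p = 0.00582). In both genes every treated array was above every control and the call was kept on leaving out any array. Enpep, the brush border aminopeptidase A, rose by 0.87 ± 0.17 (adjusted p = 0.0289, lost for 5 of 11 arrays left out, up to 0.123). Sgk2, a kinase related to Sgk1, rose by 1.04 ± 0.20 (adjusted p = 0.0254, lost for 3, up to 0.111). Papss2, which makes the sulphate donor PAPS, rose by 0.57 ± 0.11 (adjusted p = 0.0297, lost for 5, up to 0.105).

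Enzymes that act on drugs, retinoids and fatty acids rose in part. Of 29 genes of phase I metabolism, 3 rose and 0 fell (median 0.15), and the mean log2 level was 7.30 to 7.38 in control and 7.32 to 7.91 at 12 h. Cyp4b1, a cytochrome P450 of fatty acid and foreign compound oxidation, had signals of 33.7, 38.1 and 64.6 in control and 89.8, 337.7, 389.5 and 316.3 at 12 h. Replicate 1 lay far below the other treated arrays but above the controls. Its change was 2.15 ± 0.41 (adjusted p = 0.0264, lost for 4 of 11 arrays left out, up to 0.11). Aldh1a1, a retinaldehyde dehydrogenase, had signals of 608.6, 710.6 and 1195 in control and 1297, 2128, 2589 and 2484 at 12 h, and Cyp4f14, a leukotriene-oxidising P450, 252.5, 325.8 and 303.8 in control and 440.4, 639.5, 690.8 and 808.2. In both genes replicate 1 was the lowest of the treated arrays. They rose by 1.34 ± 0.26 (adjusted p = 0.0293) and 1.07 ± 0.22 (adjusted p = 0.0378), lost for 4 and 8 of the 11 arrays left out (up to 0.13 and 0.148). Among 28 genes of phase II conjugation and efflux, 1 passed the test: Gstm5, a glutathione transferase, fell by 0.47 ± 0.10 on the log2 scale (adjusted p = 0.0432, lost for each of the 11 arrays left out, up to 0.155).

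In lipid metabolism, 2 of 26 genes of PPARA and fatty acid oxidation and 2 of 28 of lipogenesis and lipid storage rose, and 0 fell (medians 0.08 and 0.10). Creb3l3, a membrane-bound transcription factor of lipid metabolism, had signals of 11.4, 22 and 28.1 in control and 47.8, 37.9, 68.9 and 62.4 at 12 h. It rose by 0.95 ± 0.19 (adjusted p = 0.0297, lost for 3 of 11 arrays left out, up to 0.118). Pex11a, a peroxisome division protein, rose by 0.64 ± 0.14 (adjusted p = 0.0424, lost for 10, up to 0.165). Agpat2 and Dgat2 encode enzymes of triglyceride synthesis. Agpat2 signals were 363.2, 454.4 and 479.3 in control and 616.3, 772.7, 755.6 and 798.6 at 12 h, and Dgat2 signals were 230.7, 231.8 and 211.1 in control and 320.4, 361.1, 467.1 and 469.5. Both were without overlap and rose by 0.75 ± 0.13 (adjusted p = 0.0182) and 0.79 ± 0.14 (adjusted p = 0.0213), each lost for 4 of 11 arrays left out (up to 0.0825 and 0.0782). Ces1g, a carboxylesterase that cleaves lipid and drug esters and whose promoter is printed above, had signals of 23.4, 34.5 and 53.3 in control and 77.6, 182.3, 204.2 and 225.4 at 12 h. It rose by 1.78 ± 0.30 (adjusted p = 0.0166, lost for 3 of 11 arrays left out, up to 0.0815), with replicate 1 again the lowest treated array.

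Of 24 genes of the endothelin, apelin and guanylin systems, 2 rose and 2 fell, with Guca2b above as 1 of the rises. Edn1 had the largest fall of the genes named here. It encodes endothelin-1, a peptide that constricts vessels. Its signals were 445.7, 347.5 and 182 in control and 40, 51.1, 42.9 and 101.4 at 12 h, 5.52-fold lower on average and without overlap. The change was -2.17 ± 0.29 (adjusted p = 0.00525, kept on leaving out any array). At 3 h the gene was 0.25 from control, and it fell by 2.42 on the log2 scale between 3 h and 12 h. Edn2, the related endothelin-2 of gut epithelium, went the other way. Its signals were 66.8, 54.5 and 42.9 in control and 119.2, 141.2, 99.2 and 127.9 at 12 h, a change of 0.97 ± 0.18 (adjusted p = 0.022; lost without control replicate 2, control replicate 3 or 12 h replicate 2, up to 0.0883). Aplnr, the apelin receptor of endothelial cells, had signals of 56.5, 69 and 75.2 in control and 29.1, 23.3, 31 and 21.1 at 12 h, and fell by 0.98 ± 0.14 on the log2 scale (adjusted p = 0.00582, kept on leaving out any array). A dimmer Aplnr probe set changed by -0.38. Aplnr was the 1 called gene of 25 endothelial markers, whose mean log2 level was 5.99 to 6.13 in control and 5.87 to 6.02 at 12 h.

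Defence genes were mixed. Of 33 antimicrobial and defence genes, 3 rose and 1 fell (median 0.19), and the mean log2 level overlapped between the groups, at 6.65 to 7.38 in control and 7.04 to 7.63 at 12 h. Lcn2, a siderophore-binding protein that withholds iron from bacteria, had signals of 33.3, 16.9 and 17.8 in control and 317.2, 215.5, 220.1 and 36.9 at 12 h. Replicate 4 was near the controls and the other 3 treated arrays were far above them. The change was 2.21 ± 0.48 (adjusted p = 0.0424, lost for 10 of 11 arrays left out, up to 0.155). Il33, an alarmin cytokine, had signals of 32.5, 34.7 and 45.2 in control and 271.1, 224.6, 178.5 and 67.4 at 12 h. It rose by 1.78 ± 0.36 (adjusted p = 0.033, lost for 7, up to 0.125). Saa3, an acute-phase serum amyloid, had signals of 29.8, 31.1 and 66.8 in control and 156.6, 120.8, 155.8 and 102.8 at 12 h, and rose by 1.40 ± 0.23 (adjusted p = 0.0161, lost without control replicate 1 or control replicate 2, up to 0.083).

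Hp, haptoglobin, and Wfdc12, a protease inhibitor with antibacterial action, followed the array pattern of Lcn2. Hp signals were 31.9, 16.6 and 26.6 in control and 166.2, 147.9, 131.5 and 36.8 at 12 h. Wfdc12 signals were 3.2, 6.5 and 2.7 in control and 41.6, 73, 71 and 10.8 at 12 h. Replicate 4 was the lowest treated array for both, and they rose by 1.61 ± 0.35 (adjusted p = 0.0424) and 1.55 ± 0.35 (adjusted p = 0.0478), each lost for 10 of 11 arrays left out (up to 0.165 and 0.15). Il18, an epithelial cytokine, fell. Its signals were 1883, 1522 and 1959 in control and 689.7, 1154, 1018 and 810 at 12 h, and the change was -0.97 ± 0.16 (adjusted p = 0.0152, lost without control replicate 1, 0.0729). S100a8, a neutrophil protein, had signals of 10.5, 10.9 and 20.3 in control and 155.4, 89.8, 104.3 and 15.9 at 12 h, a change of 1.63 ± 0.45 that did not pass (adjusted p = 0.0975). Its array pattern, with replicate 4 at the control level, was that of Lcn2, and the part of neutrophils was not tested. Of 17 neutrophil and mast cell markers, 0 passed (4 at an unadjusted p under 0.05), their mean log2 level was 4.46 to 4.59 in control and 4.55 to 4.95 at 12 h, and the neutrophil granule gene Mpo was at 2.5 to 4.1 in control and 9.2 to 18 at 12 h (change 0.57, adjusted p = 0.154).

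**Figure D3:**
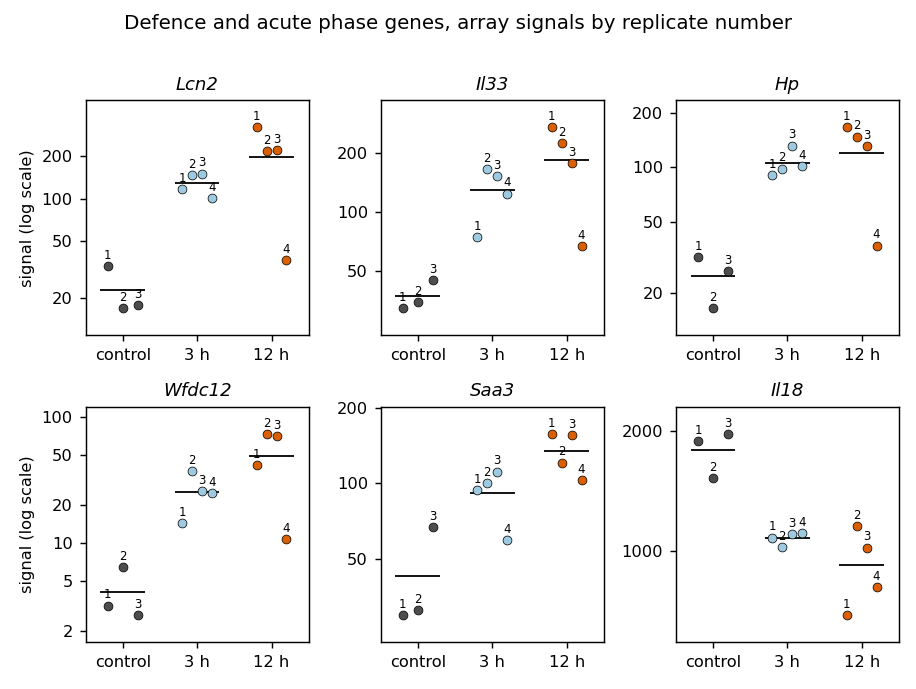
Deposited signal (log axis) of 6 defence and acute phase genes on each array, by group (control, 3 h and 12 h), with the replicate number at each point and a line at the group mean. For Lcn2 the 12 h arrays are at 317.2, 215.5, 220.1 and 36.9, and the lowest of them is close to the highest control at 33.3.

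Interferon-stimulated genes did not pass as a group of single genes: 0 of 32 were called by limma, and 4 had an unadjusted p under 0.05, against 15.8% of all genes. Their median change was 0.40 and 31 of 32 were above 0, but 1 array stood apart. The mean log2 level was 8.76 on 12 h replicate 1, 7.09 to 7.22 on the other treated arrays and 6.65 to 7.5 in control. Without 12 h replicate 1 the median was 0.05. Ifi35 had signals of 508.3, 447.4 and 652 in control and 1239, 703.5, 721.3 and 654.6 at 12 h, and a change of 0.58 ± 0.20 (adjusted p = 0.181). The RNA sensor Ddx58 had 88.2, 79.6 and 85.3 in control and 177.2, 94.4, 117 and 101.4 at 12 h (adjusted p = 0.212).

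Among immune cell lists, 1 gene passed. Csf1r, the macrophage growth factor receptor and a kinase that imatinib blocks, had signals of 535.1, 458.4 and 610.8 in control and 340.8, 333.4, 397 and 380.7 at 12 h. It fell by 0.53 ± 0.12 on the log2 scale (adjusted p = 0.0441, lost for 10 of 11 arrays left out, up to 0.14). It was the 1 called gene of 22 macrophage markers, whose median was -0.27 with 17 of 22 below 0, and whose mean log2 level was 7.75 to 8.07 in control and 7.57 to 7.93 at 12 h. Of 23 B and plasma cell markers (median -0.27) and 26 T and NK cell markers (median 0.04), 0 were called, with 5 and 3 at an unadjusted p under 0.05.

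In the muscle and stroma, most smooth muscle genes were lower in mean without passing the test. Of 21 smooth muscle markers 19 were below 0 (median -0.45), 14 had an unadjusted p under 0.05 (15.8% over all genes) and 0 fell by the adjusted p. The mean log2 level was 10.17 to 10.35 in control and 9.63, 9.82, 9.81 and 10.29 at 12 h, so replicate 4 lay within the controls and the others below. Without 12 h replicate 4, 9 of the 21 were called lower. The 1 called member went up: Hspb7, a small heat shock protein of muscle, had signals of 81.6, 49.5 and 72.8 in control and 208.8, 215.2, 202.8 and 105.7 at 12 h, a change of 1.22 ± 0.25 (adjusted p = 0.037, lost for 7 of 11 arrays left out, up to 0.156). Dimmer Hspb7 probe sets changed by 0.77 and 0.72. Of 9 markers of the interstitial cells of Cajal, the gut pacemaker cells that depend on KIT, 0 were called (2 at an unadjusted p under 0.05). Ano1, their chloride channel, also made by other cells, had signals of 2030, 1793 and 1392 in control and 732.8, 307.4, 732.5 and 1069 at 12 h, a change of -1.38 ± 0.32 that narrowly missed (adjusted p = 0.0546) although the groups did not overlap. A second, dimmer Ano1 probe set changed by -0.92 and did pass (adjusted p = 0.0035, limma over all probe sets with 1 gene name). Of 27 fibroblast and matrix genes, 15 fell. That count ranged from 4 to 13 over the 11 left-out arrays, and it moved by over 1.5 times without control replicate 1 (4), control replicate 2 (6), control replicate 3 (9), 12 h replicate 2 (8) or 12 h replicate 3 (7). It was 10 without 3 h replicate 1, and 0 without the 5 arrays high in pancreatic transcripts.

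Secreted signals of the stroma and epithelium gave few calls. Lefty1, an inhibitor of NODAL signalling, had signals of 71.2, 67.4 and 74.1 in control and 137, 151.8, 176.3 and 182.9 at 12 h. All treated arrays were above all controls, and the change was 1.03 ± 0.12 (adjusted p = 0.00139, kept on leaving out any array). At 3 h it stood at -0.31, and from 3 h to 12 h it rose by 1.34. Tgfb3, a ligand of the TGF-beta receptors, had signals of 82.7, 69.7 and 77.6 in control and 35.4, 41.4, 50.8 and 52.3 at 12 h, a change of -0.61 ± 0.13 (adjusted p = 0.0424, lost for 9 of 11 arrays left out, up to 0.152). These were the calls among 24 genes of BMP, TGF-beta and ID signalling, of which 18 were below 0 (median -0.23). Sfrp2, a secreted WNT antagonist, was the 1 called of 30 WNT ligands, receptors and modulators, at -0.49 ± 0.10 (adjusted p = 0.0363, lost for 8, up to 0.122). Ereg, the EGF receptor ligand epiregulin, was the 1 called of 33 EGF and FGF family genes, at 0.60 ± 0.12 (adjusted p = 0.0356, lost for 7, up to 0.12). Of 15 hedgehog and 19 Notch genes, 0 were called (4 and 3 at an unadjusted p under 0.05).

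Enteroendocrine and fat markers gave single calls. Nts, the gut hormone neurotensin, had signals of 33.2, 76.2 and 157.3 in control and 248.3, 272.1, 441.5 and 404.7 at 12 h. The controls spread widely below the treated arrays, and it rose by 1.91 ± 0.35 (adjusted p = 0.0234; lost without control replicate 1, control replicate 2 or 12 h replicate 3, up to 0.0978). Isl1, a transcription factor of endocrine cells, had signals of 33.1, 37.2 and 43.8 in control and 17.5, 22.1, 21.5 and 15.6 at 12 h, and fell by 0.62 ± 0.11 on the log2 scale (adjusted p = 0.0199, lost without control replicate 2 or control replicate 3, up to 0.0782). The list of 24 enteroendocrine markers had these 1 rise and 1 fall (median 0.06). Of 13 tuft cell and 19 goblet cell markers, 0 were called (1 and 2 at an unadjusted p under 0.05). Fabp4, the fatty acid carrier of fat cells and capillaries, had signals of 568.2, 483.2 and 432.1 in control and 975.1, 765.8, 1379 and 1329 at 12 h, and rose by 1.11 ± 0.21 (adjusted p = 0.0271, lost for 4 of 11 arrays left out, up to 0.103). It was the 1 called of 15 fat markers, of which 14 were above 0 (median 0.34). Their mean log2 level was 6.81 to 6.88 in control and 6.99, 6.91, 7.4 and 7.48 at 12 h, highest on replicates 3 and 4, where Fabp4 was also highest. The part of attached fat in the Fabp4 value was not tested.

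Of the genes of dividing cells, 7 of 33 of the G2 phase and mitosis fell and 0 of 29 of DNA replication passed the test. All 33 mitosis genes had a change below 0, with a median of -0.68 against -0.006 over all genes. Of the 33, 17 did not overlap between the groups, beside 13.0% of all genes (6.99% not overlapping and lower). Their mean log2 level was 7.15 to 7.38 in control and 7.08, 6.61, 6.45 and 6.31 at 12 h, nearest to control on replicate 1. Mki67, the proliferation marker Ki-67, had signals of 483, 629.5 and 471 in control and 333.5, 237.3, 267.5 and 191.7 at 12 h. It fell by 1.01 ± 0.20 on the log2 scale (adjusted p = 0.029, lost for 4 of 11 arrays left out, up to 0.13). Hmmr, a spindle-associated hyaluronan receptor, had 150.4, 172.1 and 186.3 in control and 98.1, 99.9, 80 and 61 at 12 h, a change of -0.90 ± 0.17 (adjusted p = 0.0274, lost for 4, up to 0.105). The spindle checkpoint kinase Bub1b changed by -0.75 ± 0.14 (adjusted p = 0.0271, lost for 4, up to 0.115).

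The other called members were Anln, a protein of the cleavage furrow (-0.98, adjusted p = 0.0377), Cdk1, the kinase that drives entry into mitosis (-1.10 ± 0.24, adjusted p = 0.0474), Nusap1, a spindle protein (-1.04, adjusted p = 0.0445), and Cenpf, a kinetochore protein (-0.90, adjusted p = 0.0396). Each of the 4 was lost for 8 or 9 of the 11 arrays left out. The count of called genes of this list ranged from 0 to 12 over the 11 left-out arrays: it was 0 without control replicate 1, control replicate 2 or 12 h replicate 3, 1 without 12 h replicate 2, 2 without control replicate 3, 3 without 3 h replicate 1 or 12 h replicate 4, 4 without 3 h replicate 2, and 12 without 12 h replicate 1, while the median stayed between -0.88 and -0.57. It was also 0 without the 5 arrays high in pancreatic transcripts, where 1 array at 12 h remained. Of 29 genes of DNA replication, 24 were below 0 (median -0.25), 6 had an unadjusted p under 0.05 (15.8% over all genes) and 0 were called by limma. Their mean log2 level overlapped between the groups, at 6.78 to 7.16 in control and 6.36 to 7.08 at 12 h. Among them the primase subunit Prim1 changed by -0.69 ± 0.18 (adjusted p = 0.0863). Of 22 G1 cyclins and CDK inhibitors 1 passed: Cdkn1b, the inhibitor p27, had signals of 361.7, 409.3 and 423.4 in control and 236.2, 279.1, 201.5 and 233.2 at 12 h and fell by 0.71 ± 0.14 on the log2 scale (adjusted p = 0.0268, lost for 4 of 11 arrays left out, up to 0.105). A dimmer Cdkn1b probe set changed by 0.15.

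Among stress and hormone responses, glucocorticoid-induced genes had the clearest calls. Of 19 such genes 4 rose and 0 fell (median 0.16): Fkbp5, Per1, Sgk1 and Lcn2. Fkbp5, a chaperone of the glucocorticoid receptor, had signals of 382.6, 442.4 and 397.5 in control and 866.6, 971.5, 1064 and 807.3 at 12 h. The groups were far apart, the change was 1.15 ± 0.11 (adjusted p = 0.00027, kept on leaving out any array), and it was -0.21 from its 3 h level. Per1, a clock gene that is also a glucocorticoid target, rose by 1.10 ± 0.11 (adjusted p = 0.00027).

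Of 29 immediate early genes, 1 rose and 3 fell (median -0.10). Jun, part of the AP-1 transcription factor, had signals of 797.6, 763.5 and 838 in control and 490.6, 530.5, 567.3 and 506.1 at 12 h, tight in both groups, and fell by 0.60 ± 0.11 on the log2 scale (adjusted p = 0.0234, lost for 4 of 11 arrays left out, up to 0.0871). Ccn2, the matricellular growth factor CTGF, changed by -0.87 ± 0.19 (adjusted p = 0.0464, lost for 9, up to 0.118), and Btg2, an antiproliferative protein also counted among 20 p53 targets, by -0.63 ± 0.14 (adjusted p = 0.0424, lost for 10, up to 0.146). A second bright Btg2 probe set changed by -0.32 and did not pass (adjusted p = 0.23, limma over all probe sets with 1 gene name). Ier3, a survival gene, rose by 0.75 ± 0.15 (adjusted p = 0.0363, lost for 7, up to 0.145).

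Of 23 heat shock genes 1 rose, Dnajb1, a co-chaperone of HSP70. Its signals were 336.6, 303.9 and 349.3 in control and 694.7, 596.1, 487.2 and 605.5 at 12 h, a change of 0.81 ± 0.14 (adjusted p = 0.0161, lost without control replicate 1 or control replicate 2, up to 0.0819), 0.79 above its 3 h level. A second bright Dnajb1 probe set changed by 0.56 and did not pass (adjusted p = 0.13, limma over all probe sets with 1 gene name). Herpud1 was the 1 called of 30 genes of the ATF4 and unfolded protein responses. It encodes a protein that helps degrade misfolded proteins, and it rose by 0.75 ± 0.16 (adjusted p = 0.0399, lost for 8 of 11 arrays left out, up to 0.13). Slc30a1, the zinc exporter of the plasma membrane, was the 1 called of 16 metallothionein and zinc genes, whose median was 0.31. Its signals were 227.6, 237.3 and 286.2 in control and 401.2, 530.7, 629.1 and 438.7 at 12 h, a change of 0.94 ± 0.15 (adjusted p = 0.0109, lost without control replicate 1 or control replicate 2, up to 0.0632). A dimmer Slc30a1 probe set changed by 0.72. Of 15 NRF2 targets (median 0.22) and 20 hypoxia targets (median 0.13), 0 were called, with 4 in each at an unadjusted p under 0.05.

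The remaining large rises belong to no common list. Tspan4, a tetraspanin of cell migration tracks whose promoter is printed above, had signals of 41.5, 22.4 and 35.3 in control and 233.2, 221, 287 and 147.4 at 12 h, 6.72-fold higher on average and without overlap. It rose by 2.26 ± 0.22 (adjusted p = 0.00027, kept on leaving out any array), of which 1.48 came after 3 h. Car8, a protein of the carbonic anhydrase family without enzyme activity, had signals of 119.9, 204.6 and 283.1 in control and 535.2, 818.2, 814.5 and 617.7 at 12 h, and rose by 1.76 ± 0.27 (adjusted p = 0.01, kept on leaving out any array). Its other probe sets changed by 0.71 to 0.98. Iapp, the islet hormone amylin, had signals of 6.7, 6.4 and 14.8 in control and 173.6, 53.7, 42.7 and 70.3 at 12 h, with replicate 1 the highest. It rose by 1.85 ± 0.36 (adjusted p = 0.0279, lost without control replicate 1 or control replicate 2, up to 0.114), and its other probe sets changed by 0.56 to 1.52. The pancreatic acinar levels of these arrays are given above, and the part of pancreatic tissue in the Iapp values was not tested.

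Several of the large falls were as separate between groups as these rises. Rnf125, a ubiquitin ligase that acts on RNA sensors, had signals of 238.6, 305.3 and 363.6 in control and 96.2, 84.3, 90.8 and 78.7 at 12 h, a change of -1.61 ± 0.14 (adjusted p = 0.000217). Bnip5 had signals of 617.5, 686.5 and 708.3 in control and 159.3, 151.8, 179.7 and 242.9 at 12 h, a change of -1.80 ± 0.17 (adjusted p = 0.00027). Ypel2 had 311.7, 381.9 and 461.4 in control and 98, 85, 77 and 86 at 12 h, a change of -1.95 ± 0.19 (adjusted p = 0.00027), while its dimmer probe sets changed by -0.20 and -1.10. All 3 calls were kept on leaving out any array, and between 3 h and 12 h the genes moved by -1.77, -0.83 and -0.97. Cilp, a matrix protein of cartilage and fibroblasts, fell by 1.05 ± 0.16 on the log2 scale (adjusted p = 0.00919, kept on leaving out any array). Spon2, a secreted matrix protein that binds microbes, had signals of 194.9, 210.6 and 167.9 in control and 75.6, 80.4, 70.8 and 39.1 at 12 h, a change of -1.36 ± 0.21 (adjusted p = 0.00905, lost without control replicate 2, 0.0581). A dimmer Spon2 probe set changed by 0.16.

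Cpm, a membrane carboxypeptidase, had signals of 452.3, 355.1 and 234.2 in control and 112.4, 142.2, 167.2 and 171.9 at 12 h, a change of -1.11 ± 0.19 (adjusted p = 0.0187, lost without control replicate 1 or control replicate 2, up to 0.0875). Ddc, the decarboxylase that makes dopamine and serotonin, had 758.8, 744.6 and 555.6 in control and 210.9, 404.8, 292 and 374.2 at 12 h, a change of -1.09 ± 0.22 (adjusted p = 0.0337, lost for 4 of 11 arrays left out, up to 0.135), while a dimmer probe set changed by -0.01. Neither gene overlapped between the groups. Scel, a protein of the cornified envelope, changed by -1.19 ± 0.21 (adjusted p = 0.0179, lost for 3, up to 0.0729), Tmem140 by -1.18 ± 0.24 (adjusted p = 0.0352, lost for 6, up to 0.133), and AI854703 by -1.10 ± 0.18 (adjusted p = 0.0134, lost for 2, up to 0.0718). Dimmer probe sets changed by -0.01 for Scel, by -0.10 for Tmem140 and by -0.80 to -0.17 for AI854703. Sectm1a, a co-stimulatory protein for T cells, had signals of 98.3, 161.5 and 113.8 in control and 78.9, 21.3, 12.8 and 32.4 at 12 h, where replicate 1 lay nearest the controls. Its change was -1.55 ± 0.33 (adjusted p = 0.0419, lost for 9, up to 0.167).

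A further 3 falls were chosen after their values were seen. Lama3, the laminin alpha 3 chain of the epithelial basement membrane, had signals of 229.1, 263.3 and 167.5 in control and 90.9, 97.9, 108.3 and 92.2 at 12 h, a change of -1.04 ± 0.13 (adjusted p = 0.00372). Irs1, the insulin receptor substrate, had 188.8, 176.8 and 198.4 in control and 83.8, 100.4, 122.9 and 110.2 at 12 h, a change of -0.77 ± 0.11 (adjusted p = 0.00738). Birc3, an inhibitor of apoptosis in NF-kappa-B signalling, had 555.8, 571.5 and 542.1 in control and 358.6, 324.7, 337.9 and 293 at 12 h, a change of -0.74 ± 0.10 (adjusted p = 0.00582). None of the 3 overlapped between the groups, and each call was kept on leaving out any array.

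The kinases that imatinib blocks kept levels that this test could not separate from control, apart from Csf1r. Of 8 such genes, 1 fell and 0 rose (median -0.03). Abl1 changed by 0.11 ± 0.15 (adjusted p = 0.809), Abl2 by -0.03 (adjusted p = 0.957) and Kit by -0.22 ± 0.16 (adjusted p = 0.584). Kit signals were 179.6, 247.9 and 150.6 in control and 153.5, 181.8, 151.9 and 155.4 at 12 h, within the range of the controls. Pdgfra and Pdgfrb changed by -0.04 and -0.22, and the collagen receptors Ddr1 and Ddr2 by 0.37 and 0.14. Of 9 PDGF ligands and receptors, 0 were called (3 at an unadjusted p under 0.05). Ddr1 signals spread from 496.4 to 1456 at 12 h.

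Eph receptors and ephrins, which position cells along the crypt, had 0 calls among 18 measured genes, 3 at an unadjusted p under 0.05 and a median of 0.03. Ephb3 changed by -0.23 and Ephb4 by 0.08. The ephrin ligands Efna5 and Efna1 changed by 0.43 (adjusted p = 0.153) and -0.41 (adjusted p = 0.192). Of 23 stem cell genes and WNT targets, 0 were called (2 at an unadjusted p under 0.05). Lgr5, the crypt stem cell receptor, had signals of 58.5, 64.5 and 49.6 in control and 64.2, 62.5, 59.6 and 35.8 at 12 h, a change of -0.06 ± 0.17. Its relative Lgr4 had 1966, 1636 and 1796 in control and 1133, 1135, 1398 and 1415 at 12 h, all below the controls, and narrowly missed (-0.50 ± 0.11, adjusted p = 0.0508). Ccnd1, the G1 cyclin D1, changed by 0.38 ± 0.21 (adjusted p = 0.427).

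Genes of basic metabolism gave no calls. Of 24 genes of oxidative phosphorylation (median 0.03), 25 ribosomal proteins (median -0.04), 19 glycolysis genes (median 0.05) and 26 ribosome biogenesis genes (median 0.08), 0 were called by limma. At an unadjusted p under 0.05 there were 1, 1, 0 and 5. In the last list, Rrs1, a factor of large ribosomal subunit assembly, had signals of 133.1, 172.8 and 184 in control and 347.7, 317.1, 280.7 and 209.8 at 12 h (0.75 ± 0.17, adjusted p = 0.0508), and Dkc1, a pseudouridine synthase, had 224.4, 240.2 and 262.8 in control and 193.3, 177.7, 162 and 160.6 (-0.45 ± 0.10, adjusted p = 0.0508). Neither gene overlapped between the groups, and both narrowly missed the threshold. The mean log2 level of the oxidative phosphorylation genes was 11.28 to 11.36 in control and 11.31 to 11.44 at 12 h. Of 7 blood and 16 skeletal muscle markers, 0 were called (2 in each at an unadjusted p under 0.05). Of 12 liver markers Hp was the 1 called, and of 21 enteric neuron and glia markers 0 were called (4 unadjusted).

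**Figure D4:**
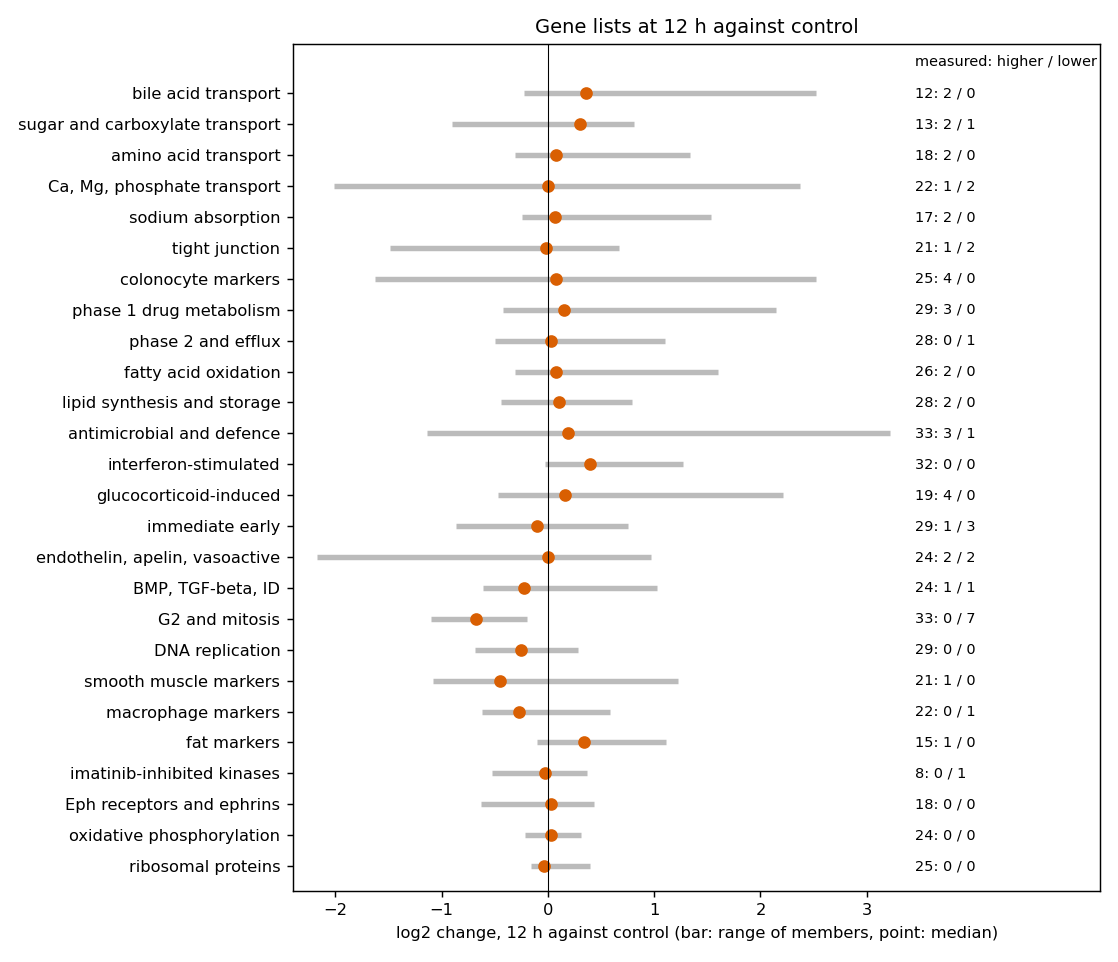
Log2 change between 12 h and control for selected gene lists, with a bar over the range of the measured members, a point at the median and, at the right, the numbers measured and called higher and lower. All 33 genes of G2 and mitosis lie below 0, with a median of -0.68, and the 32 interferon-stimulated genes have a median of 0.40 with 0 calls.

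**Figure D5:**
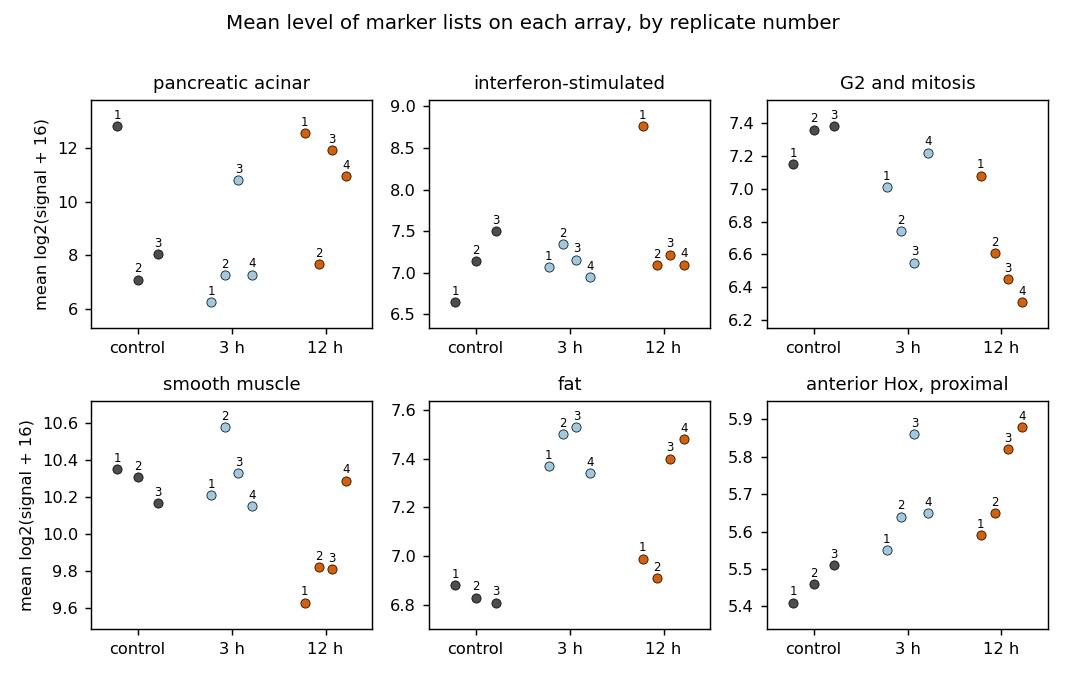
Mean log2(signal + 16) of selected gene lists on each of the 11 arrays, by group, with the replicate number at each point. The interferon-stimulated genes stand at 8.76 on 12 h replicate 1 alone, the pancreatic genes at 12.8 on control replicate 1 and 12.54 on 12 h replicate 1, and the mitosis genes are lowest on 12 h replicate 4 at 6.31.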

How the data were processed

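RNA of whole mouse colon was extracted with Trizol and hybridised to Affymetrix Mouse Genome 430 2.0 arrays, per the labels' protocols. The deposited values are linear intensities, 1 per probe set, each array scaled by the authors to a trimmed mean of 100 (2% trimmed at each end, checked on the values). The software of that summary is not given in the sources used here. Each array measured 45101 probe sets, and 34945 had 1 gene name, 932 several and 9160 none. Of the Entrez numbers, 99.4% were found in RefSeq GRCm38.p6. Array medians were 16.8 to 23.9. Precision is limited by how few arrays each group has. No 2 of the 55 array pairs held identical values.

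Values were used as log2(intensity + 16), with the probe set of highest mean over the 11 arrays for each of 18193 genes (9010 genes had over 1). Other probe sets of a named gene are given for some genes only. Of these genes, 32.9% lay below a mean level of the offset. Groups were compared with limma 3.58.1 in R 4.3.3 (lmFit and eBayes over 3 groups, 8 residual degrees of freedom, 3.99 prior), with Benjamini-Hochberg adjustment and a threshold of 0.05. On simulated data, 40.3% of 67 genes changed 1.5-fold, 92.5% of 67 changed 2-fold and 100% of 66 changed 4-fold were recovered in this comparison, with 8 false calls of 163, over 18193 genes. With 3 against 4 arrays, an exact permutation test of 1 gene cannot go below p = 0.0571, so none was used.

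The text names the 20 largest called rises and the 20 largest called falls without overlap between the groups (passing over predicted Gm and Rik genes, small RNAs, immune receptor segments and receptors of smell or taste, which enter the counts alone), up to 4 called members of each of 66 gene lists (1305 of 1412 symbols measured), up to 2 members where none was called, and a fixed set around imatinib targets. Genes outside the rule are marked as chosen after their values were seen, apart from Nusap1 and Cenpf, which were added as the remaining called mitosis genes. Clock, cholesterol synthesis and matrix genes the rule picks were fitted but are described only briefly or not at all. In lists without a call, some members that the rule picks are likewise not named. The members and lists were chosen with earlier results of these data known. Alternatives varied the scaling, offset, level filter, probe set choice, prior, array weights, a replicate block and the arrays used. Same-numbered control and 12 h arrays deviated together with correlations of 0.201, 0.311 and -0.091. Arrays of different numbers were not set beside them, so these values do not settle whether the numbers pair samples. The main fit did not take the numbers as pairs.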

Additional observations from a re-analysis of the deposited data

Results flagged for a closer look

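Among 161 named genes tested at 12 h, 9 had 1 array far from the other 3; chance alone gives about 1 in 20. S100g was highest on replicate 3 (643.6) and Ifi35 on replicate 1 (1239). Cyp4b1 was lowest on replicate 1 (89.8). Hp (36.8), Hspb7 (105.7), Lgr5 (35.8) and the seminal vesicle gene Svs2 (0.2) were lowest on replicate 4. Kit was highest on replicate 2 (181.8) and Svs6 on replicate 1 (9.2), both seminal vesicle genes being near the floor of the array.

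For some genes the 12 h level differed from the 3 h level as well as from control (limma, adjusted p under 0.05 in each; 741 genes, 4.07%, differed between 12 h and 3 h). The 2 contrasts share the 12 h arrays. Higher at 12 h than at 3 h, in log2, were Dbp (3.22), Per2 (2.55), Tef (1.93), Tspan4 (1.48), Lefty1 (1.34), Ciart (1.31), Lss (0.8), Idi1 (0.79), Dnajb1 (0.79) and Kcnq1 (0.5). Lower were Edn1 (-2.42), Rnf125 (-1.77), Cldn8 (-1.73), Npas2 (-1.69), Slc34a2 (-1.38), Cpm (-1.37), Trpm6 (-1.32), Eln (-1.27), Tmem140 (-1.14), Col6a3 (-1.08), Cilp (-1.0), Arntl (-0.98), Ypel2 (-0.97), Col15a1 (-0.86), Ddc (-0.85), Bnip5 (-0.83), Btg2 (-0.52), Col3a1 (-0.5) and Tgfb3 (-0.49). Other genes called at 12 h already differed from control at 3 h by the same test and did not pass between 3 h and 12 h. Among them, with the log2 change at 3 h against control, were Osr2 (2.14), Nts (2.34), Tmigd1 (1.46), Prap1 (1.97), Ces1g (1.81), Hp (1.57) and Hoxb3 (0.78). Falls of this kind included Aplnr (-1.18), Cdkn1b (-0.74), Ccn2 (-1.23), Hmmr (-0.78) and Bub1b (-0.69).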

How the results depend on the processing

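All 297 called genes kept their direction under every alternative tried, 281 of 281 of them where a filter on low levels left the rest out. They were picked as called in these same arrays, and several alternatives left the group means unchanged. Kept direction is therefore largely built in and is no independent check. Without the 5 arrays high in pancreatic transcripts the direction rests on 1 array at 12 h, assumed to vary like the other groups. The counts moved more: 143 higher and 154 lower became 40 and 41 with an offset of 1, 242 and 253 with an offset of 64, 231 and 252 with the level filter, 254 and 282 with a trended robust prior, 33 and 29 with the 7 arrays alone, 27 and 26 at an adjusted p under 0.01, and 5 and 3 without those 5 arrays, an alternative chosen after seeing the data. The lower count became 100 with all probe sets tested and 64 with an equal median over all probe sets, also chosen after seeing the data. Leaving out 1 array gave 31 to 204 higher and 31 to 251 lower. With the replicate number as a block, 99 were higher and 84 lower, and 27 of the 94 called genes named lost their call. Whether the numbers pair the samples is not known. The cause of these moves was not tested, beyond the fewer arrays in the fits that drop some. Dim genes are limited by the offset. The simulation, which left out dim genes and differences shared across an array, found 40.3% of the genes that changed 1.5-fold.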
